A study of Rattus norvegicus with 48 samples.

Results

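The genes described here are 6 genes that mark or drive the activation of hepatic stellate cells: Acta2, Des, Vim, Pdgfrb, Tgfb1 and Ccn2, the last also known as Ctgf. They were taken by their rat Ensembl identifiers, which are ENSRNOG00000058039 for Acta2, ENSRNOG00000019810 for Des, ENSRNOG00000018087 for Vim, ENSRNOG00000018461 for Pdgfrb, ENSRNOG00000020652 for Tgfb1 and ENSRNOG00000015036 for Ccn2. All 6 were among the 32662 genes listed, and all 6 were among the 12756 genes that passed the filter on low counts. The rule names them by what they are known for and uses no measured value, but they were chosen with earlier results of these data known.

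RNA from the livers of 48 male Wistar rats was sequenced after polyA selection, with 8 animals in each of 6 groups. The animals started at 6 weeks of age and were fed for 4, 8 or 12 weeks. The CDAA groups received a diet of defined amino acids that was deficient in choline and held 1% cholesterol, which the sample labels spell CDDA; it gave 31% of its energy as fat, 11% as protein and 58% as carbohydrate, with 0.17% methionine. The CSAA groups received the choline-supplemented control diet, with 16% of its energy as fat, 12% as protein, 72% as carbohydrate and 0.4% methionine. The diets thus differed in choline, cholesterol, methionine and fat at once, so the parts of these components cannot be told apart. Each comparison at a given week asks how the liver of animals on the steatohepatitis diet differed from that of controls fed for the same time.

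Hepatic stellate cells lie between the sinusoidal endothelium and the hepatocytes and store vitamin A when quiescent. In an injured liver they take on the features of myofibroblasts, contract, divide and lay down matrix. Platelet-derived growth factor, acting through the receptor Pdgfrb, is known as a strong signal for their growth, and transforming growth factor beta for their production of matrix. In whole liver, a higher level of such a gene can come from more cells that carry it or from more RNA per cell, and these cannot be told apart here. Identity markers of hepatocytes, macrophages, cholangiocytes and endothelial cells, and the further stellate cell and matrix genes listed for this work, were not analysed here, because the tables carry Ensembl identifiers and the reference used paired none of them with a symbol.

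The upstream sequences of the 2 genes with the highest diet effects at week 4, Acta2 and Ccn2, are given so that the letters of known control elements can be seen. Both are the 250 bases before the RefSeq transcription start in build GRCr8, read 5′ to 3′ on the gene's own strand. Acta2 is on the minus strand at chr1:241172504-241172753 and Ccn2 on the minus strand at chr1:22624615-22624864. Capitals mark every match, on either strand, to the motifs that were searched.
Acta2: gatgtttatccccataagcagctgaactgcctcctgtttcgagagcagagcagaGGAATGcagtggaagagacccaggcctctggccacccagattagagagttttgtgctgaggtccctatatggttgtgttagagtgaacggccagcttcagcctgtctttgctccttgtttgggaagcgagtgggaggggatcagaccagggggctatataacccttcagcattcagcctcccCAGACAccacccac
Ccn2: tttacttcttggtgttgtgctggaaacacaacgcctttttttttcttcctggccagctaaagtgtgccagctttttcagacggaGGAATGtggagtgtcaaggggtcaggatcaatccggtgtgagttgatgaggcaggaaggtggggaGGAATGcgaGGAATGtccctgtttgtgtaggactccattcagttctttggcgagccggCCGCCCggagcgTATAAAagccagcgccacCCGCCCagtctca
The TEAD motif GGAATG, known as a binding element of the factors that work with YAP, occurred once in the Acta2 window and 3 times in the Ccn2 window. It was found in 14.2% of all 33469 RefSeq promoter windows searched, which run from 250 bases before the start to 50 after it. The Ccn2 window also held 1 TATAAA, present in 14.2% of windows, and 2 matches to GGGCGG on the opposite strand, the SP1 motif, present in 33.1%. The Acta2 window held 1 CAGACA, the SMAD motif, present in 21.1%. The SP1 motif occurred 3 times in the Des window and 1 time in that of Vim, which also held 1 TATAAA. No match to the strict CArG box, the serum response element, or to the AP-1 motif TGANTCA was found in the 5 windows searched. Of all windows, 1.64% and 7.33% held them. The strict CArG box is CC, then 6 letters of A or T, then GG. The Acta2 window holds ccctatatgg and ccttgtttgg, which each differ from this pattern by 1 base. Such near matches were not searched and are not in capitals. Tgfb1 held no match to any of the 6 motifs. These matches describe letters and not bound sites.

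Reads on genes ranged from 13619274 to 22284359 per animal, with a median of 18614479. The lowest count behind any value of the 6 genes was 27 reads, for Des in a control. Levels are given as RPKM, read counts divided by gene length and library size, so that genes of unequal length can be set side by side. RPKM carries no TMM factors, which the fitted fold changes use and which were 0.717 to 0.862 on CSAA and 1.27 to 1.43 on CDAA at week 12. The fit also compares group means, which the animals that stand apart move more than medians. Ratios of the RPKM medians printed here are 1.39 to 3.03 times the fitted folds, for example 12.6 against 4.95 for Acta2 at week 12. Of the 48 animals, 4 had been placed apart from their groups by an earlier analysis of these data. They were left out in a second fit of every result and are called the animals that stood apart. Animal 303 on CDAA at week 4 was the lowest of its group in all 6 genes, and animals 504 and 908, on CSAA at weeks 8 and 12, were the highest of theirs in all 6. Animal 1102 on CDAA at week 12 was the lowest of its group in 5 of 6. Over all genes tested, the mean correlation of these 4 animals with the others of their group was between 0.950 and 0.978, and that of the other 44 between 0.971 and 0.989. Animal 1102, at 0.978, lay within the range of the other 44.

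All 6 genes were higher on CDAA than on CSAA at each of the 3 weeks. Every one of the 18 effects passed an adjusted p of 0.01 and a log2 fold change of 1, by edgeR's quasi-likelihood test with Benjamini-Hochberg adjustment. Of all genes tested, 15.7%, 18.1% and 19.4% passed in this direction at weeks 4, 8 and 12. The median log2 fold change of the 6 genes was 1.94, 2.02 and 2.36 at weeks 4, 8 and 12, and that of all genes tested was -0.02, 0.05 and -0.09. At week 4 the CPM (reads scaled to library size, with TMM factors) of every CDAA animal lay above that of every CSAA animal for 3 of the 6 genes, Acta2, Des and Ccn2, where 8.71% of all genes showed this. For Vim, Pdgfrb and Tgfb1, 7 of the 8 animals did so, the exception being animal 303. At weeks 8 and 12 the diets did not overlap for any of the 6 genes, against 20% and 19.8% of all genes. Without the 4 animals that stood apart, animal 303 among them, none of the 6 genes overlapped at any week. The share of all genes without these animals is not given here, so this count has nothing to be set against.

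**Figure D1:**
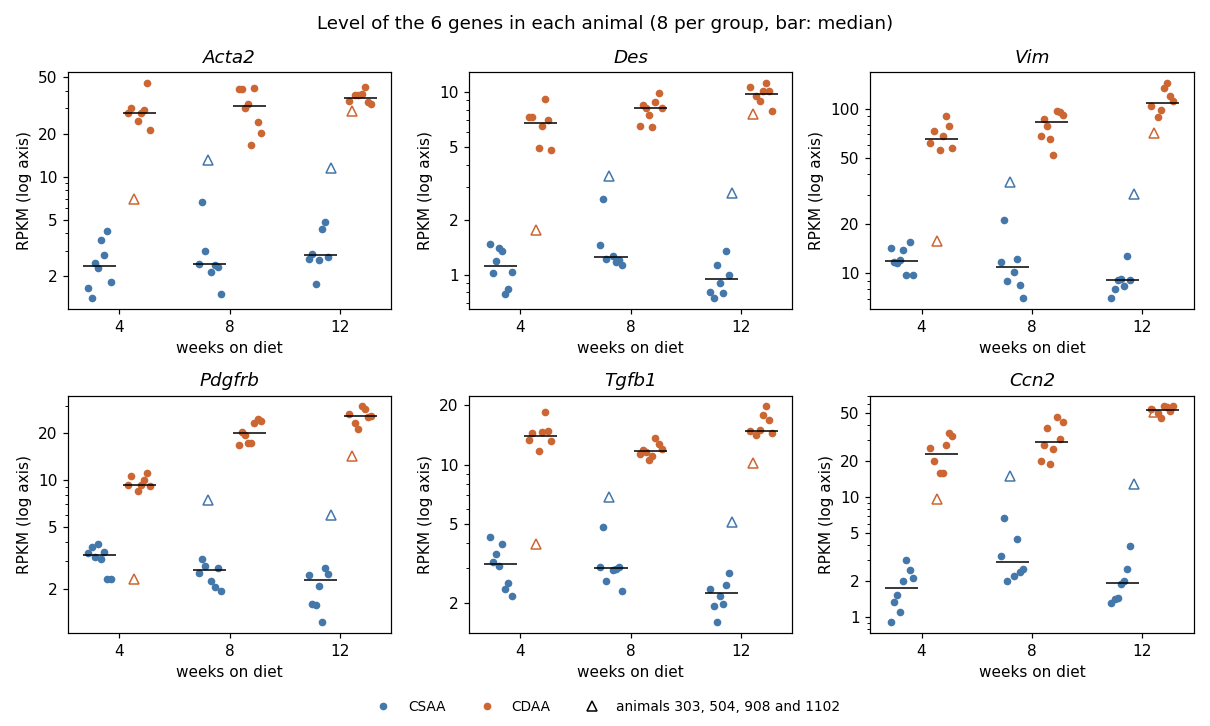
RPKM on a log axis of each gene in each of the 48 animals, by weeks on diet, with CSAA in blue, CDAA in orange, the group median as a bar and the 4 animals that stood apart as open triangles. The CDAA medians lie above the CSAA medians in all panels, animals 504 and 908 lie above the other CSAA animals, and animal 303 is the lowest of the CDAA animals at week 4.

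Acta2 encodes smooth muscle alpha-actin, the contractile filament by which activated stellate cells are most often recognised. On CSAA its RPKM at week 4 had a lowest value of 1.40, a median of 2.38 and a highest value of 4.17. At week 8 the lowest, median and highest were 1.497, 2.43 and 13.03, and at week 12 they were 1.77, 2.80 and 11.4. The highest control values at weeks 8 and 12 were those of animals 504 and 908, and the next highest were 6.68 and 4.81. On CDAA the lowest, median and highest were 7.02, 27.8 and 45.5 at week 4, 16.6, 31.3 and 41.6 at week 8, and 29.0, 35.4 and 42.6 at week 12. The lowest value at week 4 was that of animal 303, and the next was 21.2. The log2 fold change of CDAA over CSAA was 2.95 ± 0.32 (SE) at week 4, a 7.75-fold difference, 2.33 ± 0.31 at week 8 and 2.31 ± 0.31 at week 12. The adjusted p by edgeR's quasi-likelihood test was at most 5.8e-09 at any week. The coefficient of variation of RPKM among CDAA animals was 40.1%, 32.1% and 11.7% in the order of the weeks, and it was 26.2% and 9.57% at weeks 4 and 12 without the animals that stood apart.

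Des encodes desmin, the intermediate filament of muscle cells, which rat stellate cells carry also when quiescent. It had the lowest median RPKM of the 6 genes in every group. The median on CSAA was 1.11, 1.24 and 0.947 in the order of the weeks, with all control values between 0.741 and 3.46. The median on CDAA was 6.77, 8.14 and 9.76 at the 3 weeks, with ranges of 1.76 to 9.17, 6.39 to 9.82 and 7.55 to 11.2. The value of 1.76 was that of animal 303 and the next lowest was 4.81. The log2 fold change was 1.97 ± 0.21 (SE) at week 4, 1.66 ± 0.20 at week 8 and 2.20 ± 0.21 at week 12.

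Vim encodes vimentin, an intermediate filament of mesenchymal cells that leukocytes and endothelial cells carry too. It had the highest median RPKM of the 6 genes in every group. On CSAA the lowest, median and highest were 9.71, 11.9 and 15.5 at week 4, 7.08, 10.9 and 35.9 at week 8, and 7.04, 9.15 and 30.3 at week 12. On CDAA they were 15.7, 65.4 and 90.2 at week 4, 52.3, 82.98 and 97.1 at week 8, and 71.8, 108 and 144 at week 12. On the CPM scale, animal 303, at 35.3, lay below the highest control at week 4, at 36.9. The log2 fold change was 1.90 ± 0.24 (SE) at week 4, 1.89 ± 0.24 at week 8 and 2.42 ± 0.25 at week 12.

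Pdgfrb encodes the beta receptor for platelet-derived growth factor, carried in liver by stellate cells and other pericyte-like cells. Its median RPKM on CSAA was 3.29, 2.63 and 2.28 at weeks 4, 8 and 12. The control range was 2.30 to 3.91, 1.95 to 7.46 and 1.22 to 5.94, the highest at the later weeks being animals 504 and 908. Its median on CDAA was 9.27, 19.9 and 25.6. The CDAA range was 2.33 to 11.2 at week 4, where animal 303 lay among the controls and the next lowest was 8.55, 16.9 to 24.7 at week 8, and 14.2 to 29.7 at week 12. Apart from animal 303, every CDAA animal at week 4 lay above the controls of that week, and every CDAA animal at week 8 lay above every CDAA animal at week 4. The log2 fold change was 1.02 ± 0.21 (SE) at week 4, with an adjusted p of 4.6e-05 by edgeR's quasi-likelihood test, 2.15 ± 0.22 at week 8 and 2.48 ± 0.22 at week 12. The effect at week 4 lay close to the threshold of 1 and was 0.96 with limma-voom, and 4 of the 16 fits that left out 1 animal gave 0.97 to 0.98 (CSAA replicates 7 and 8, CDAA replicates 2 and 7), while without the 4 animals it was 1.17 ± 0.11.

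Tgfb1 encodes transforming growth factor beta 1, a ligand made by macrophages, stellate cells and platelets that raises matrix production. Its median RPKM on CSAA was 3.15, 3.01 and 2.26 at weeks 4, 8 and 12, with a control range of 1.60 to 6.85 over the 3 weeks. Its median on CDAA was 13.98, 11.8 and 14.9. The CDAA ranges were 3.996 to 18.4, 10.6 to 13.6 and 10.2 to 19.8. The lowest value at week 4, that of animal 303, lay among the controls, and the next was 11.8. The log2 fold change was 1.61 ± 0.18 (SE) at week 4, 1.15 ± 0.17 at week 8 and 1.78 ± 0.18 at week 12. Against a null of a log2 fold change of at most 1, the effect at week 8 did not pass, with an adjusted p of 0.29 by edgeR.

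Ccn2 encodes connective tissue growth factor, a secreted matricellular protein that TGF-beta and YAP are known to induce. On CSAA the lowest, median and highest RPKM were 0.909, 1.76 and 2.98 at week 4, 2.02, 2.87 and 14.9 at week 8, and 1.31, 1.94 and 12.9 at week 12. Without animals 504 and 908 the highest control values at weeks 8 and 12 were 6.67 and 3.88. On CDAA the lowest, median and highest were 9.57, 22.7 and 34.2 at week 4, 18.8, 29.0 and 46.1 at week 8, and 46.0, 53.5 and 57.0 at week 12. At week 12, 7 of the 8 animals lay above the highest animal of week 8, and the spread was narrow, with a coefficient of variation of 7.48% against 32.8% at week 8. The log2 fold change of the diet was 3.21 ± 0.36 (SE) at week 4, a 9.27-fold difference, 2.15 ± 0.34 at week 8 and 3.19 ± 0.35 at week 12. Without the 4 animals the effects were 3.32, 2.61 and 3.90.

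**Figure D2:**
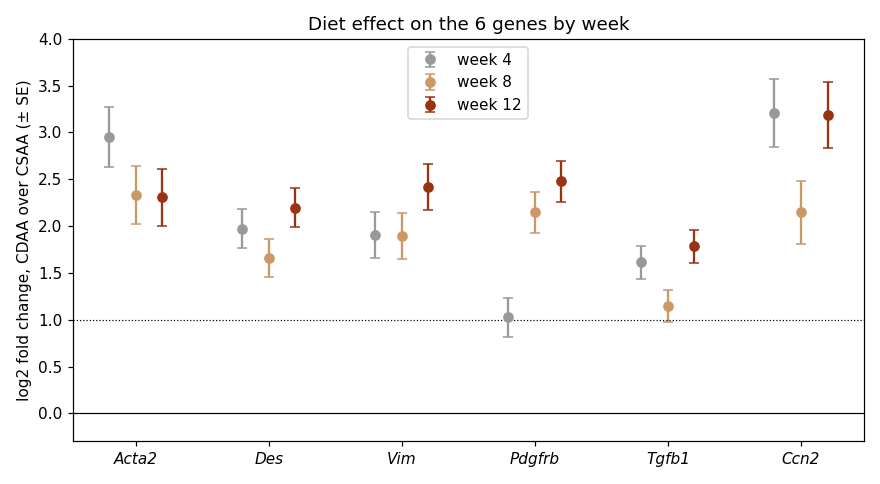
Log2 fold change of CDAA over CSAA with its standard error for each gene at weeks 4, 8 and 12, from the fit over 48 animals, with the threshold of 1 as a dotted line. Pdgfrb goes from 1.02 at week 4 to 2.48 at week 12, and Acta2 and Ccn2 have the highest values at week 4.

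The order of the median RPKM among the genes differed between groups, also among the controls, and is given with no test. In CSAA livers at week 4 it was Vim, Pdgfrb, Tgfb1, Acta2, Ccn2 and Des from high to low. In CSAA livers it was Vim, Tgfb1, Ccn2, Pdgfrb, Acta2 and Des at week 8 and Vim, Acta2, Pdgfrb, Tgfb1, Ccn2 and Des at week 12. In CDAA livers at week 4 it was Vim, Acta2, Ccn2, Tgfb1, Pdgfrb and Des, and at week 12 it was Vim, Ccn2, Acta2, Pdgfrb, Tgfb1 and Des. In the order of the 6 groups by mean log2 CPM, the lowest CDAA group of each gene lay above its highest CSAA group. The adjusted p for this difference in means was at most 4.6e-05 by edgeR's quasi-likelihood test. Single animals of these groups overlapped for every gene except Tgfb1. For Acta2, animal 303 on CDAA at week 4 had a CPM of 11.9 and animal 908 on CSAA at week 12 had 18.5. Among neighbouring groups on the same diet, Pdgfrb on CDAA at weeks 8 and 4 was the 1 pair that passed.

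The effect of the diet on Pdgfrb was higher at week 8 than at week 4 by 1.12 ± 0.30 on the log2 scale (SE, adjusted p = 0.0029, edgeR's quasi-likelihood interaction test). It was higher at week 12 than at week 4 by 1.46 ± 0.30 (adjusted p = 0.00017 by the same test). None of the other 5 genes passed in any of the 3 comparisons of weeks, where 20.8%, 22.1% and 21.2% of all genes passed for weeks 8 and 4, 12 and 4, and 12 and 8. For weeks 12 and 8, where none of the 6 passed by edgeR, 2 had an unadjusted p under 0.05, and DESeq2 and limma-voom called none. The share of all genes under that unadjusted p was not computed. The difference for Ccn2 was -1.06 ± 0.48 between weeks 8 and 4 (adjusted p = 0.083 by edgeR) and 1.04 ± 0.46 between weeks 12 and 8 (adjusted p = 0.082). With the 4 animals left out, the effects of Des, Tgfb1 and Ccn2 were higher at week 12 than at week 8, by 0.70, 0.78 and 1.29 on the log2 scale, with adjusted p of 0.0064, 0.00022 and 0.0021 by edgeR. In the same fit the effect of Vim was higher at week 12 than at week 4 by 0.83 (adjusted p = 0.0021 by edgeR). Of all 12756 genes, 3264 passed in that fit for weeks 12 and 8 and 3005 for weeks 12 and 4. Leaving out animal 908 alone gave Tgfb1 0.82 (adjusted p = 0.0042) and Ccn2 1.67 (adjusted p = 0.00075) between weeks 12 and 8 by the same test. There 3097 of all genes passed. Pdgfrb has the longest gene model of the 6, with a median over animals of 5377 bases implied by its counts and RPKM. The medians of the others were 1393 to 2360. With the trend of fold change on gene length removed, the difference for Pdgfrb between weeks 8 and 4 was 0.84 with an adjusted p of 0.026 by edgeR. That between weeks 12 and 4 passed.

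Within the CDAA diet, Pdgfrb was higher at week 8 than at week 4 by 0.98 ± 0.21 on the log2 scale (SE, adjusted p = 0.00012, edgeR) and at week 12 than at week 4 by 1.14 ± 0.21 (adjusted p = 7.7e-06, edgeR). It was the 1 gene of the 6 that passed in each, against 38.3% and 49.3% of all genes, and none passed between weeks 12 and 8, where 2.78% of all genes did. Of the 6 genes, 1 had an unadjusted p under 0.05 between weeks 12 and 8, and DESeq2 and limma-voom called none. How many of all genes had such an unadjusted p was not computed. Ccn2 was higher at week 12 than at week 4 by 0.92 ± 0.32, with an adjusted p of 0.011, just outside the threshold by edgeR, and it passed with DESeq2 (adjusted p = 0.0095) and limma-voom (adjusted p = 0.00034). Tgfb1 had a difference of -0.38 ± 0.17 between weeks 8 and 4 (adjusted p = 0.054, edgeR), and without animal 303 it fell by 0.50 (adjusted p = 0.0053, edgeR). Without that animal, 4306 of all genes passed between these weeks.

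Within the CSAA diet, edgeR's quasi-likelihood test called none of the 6 genes between any of the weeks, and neither did DESeq2 or limma-voom. Of all genes, 0.196% passed from week 4 to 8, 30.3% from week 8 to 12 and 28% from week 4 to 12. At an unadjusted p under 0.05 there were 2, 0 and 2 of the 6. The shares of all genes above are at the adjusted threshold, and those at this looser one were not computed. The largest difference was that of Ccn2 at week 8 over week 4, 1.29 ± 0.36 (SE, adjusted p = 0.039, edgeR), and without the 4 animals it was 0.90. Without these animals, Pdgfrb fell by 0.59 and Tgfb1 by 0.46 on the log2 scale between weeks 4 and 12. The adjusted p were 7.4e-05 and 0.0016 by edgeR. Between weeks 8 and 12, Des and Tgfb1 fell by 0.51 and 0.43. In this fit 3983 and 4201 of all 12756 genes passed in these comparisons, in the same order.

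To ask whether the genes rose by unequal amounts, the log2 ratio of the reads of 2 genes in the same animal was compared between the diets. This ratio does not depend on the library's scaling. Of the 45 comparisons, 15 pairs at each of 3 weeks, 32 passed an adjusted p of 0.05 by an exact two-sided permutation test over all placements of the 16 animals, with 12, 10 and 10 at weeks 4, 8 and 12. The smallest p this test can give is 0.000155. The share of all pairs of genes that would pass this test was not computed, so the count of 32 has nothing to be set against. At week 4, Acta2 rose more than Pdgfrb by 1.95 ± 0.26 on the log2 scale (SE, n = 8 per diet, exact permutation, adjusted p = 0.00064), while the difference for Pdgfrb over Ccn2 was -2.25 ± 0.33 (exact permutation, adjusted p = 0.00064). Ccn2 rose more than 4 of the other 5 genes at week 4 and more than all 5 at week 12, but at week 8 it passed over Des and Tgfb1 alone. The values at week 8 were 0.19 ± 0.31 for Acta2 over Ccn2, -0.35 ± 0.17 for Vim over Ccn2 and -0.15 ± 0.25 for Pdgfrb over Ccn2 (exact permutation, adjusted p = 0.59, 0.084 and 0.59). The remaining comparison at week 4, Acta2 over Ccn2, was -0.30 ± 0.25 (exact permutation, adjusted p = 0.30). Tgfb1 rose less than each of the other 5 genes at weeks 8 and 12. Desmin and vimentin, both intermediate filaments, differed by 0.08 ± 0.14 at week 4, -0.29 ± 0.10 at week 8 and -0.24 ± 0.10 by week 12, the last pair of values with adjusted p of 0.024 and 0.043 by the exact permutation test. The ratio of Pdgfrb to Tgfb1 turned, from a diet difference of -0.61 ± 0.13 at week 4 to 1.02 ± 0.11 at week 8 and 0.76 ± 0.11 by week 12, each with an adjusted p of 0.00064 by exact permutation. The ratios were not recomputed with the trend on gene length removed. With it removed, the edgeR log2 fold changes of Pdgfrb were 0.97, 1.80 and 2.36 in the order of the weeks, against 1.02, 2.15 and 2.48. Those of Tgfb1 were 1.64, 1.25 and 2.00, against 1.61, 1.15 and 1.78.

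**Figure D3:**
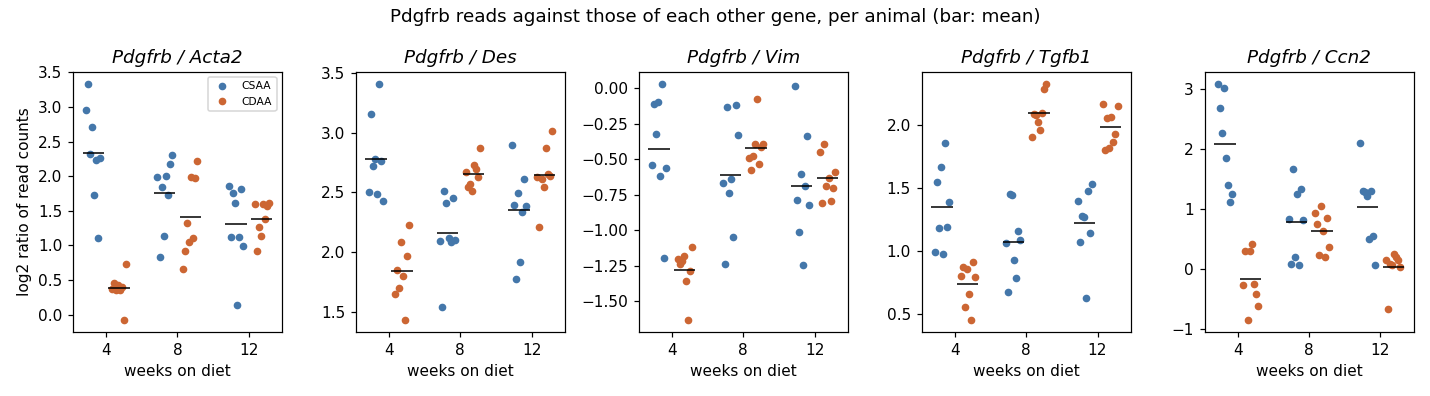
Log2 ratio of the read count of Pdgfrb to that of each other gene in every animal, by weeks on diet, with CSAA in blue, CDAA in orange and the group mean as a bar. On CDAA the ratio to Tgfb1 goes from a mean of 0.74 at week 4 to 2.10 at week 8, and the ratios to the other 4 genes are also lowest at week 4.

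The same ratio was then compared between weeks among the CDAA animals, a comparison chosen after the values were seen. Here too the share of all pairs of genes that would pass was not computed. Between weeks 4 and 8, Pdgfrb rose against each of the other 5 genes. The ratio of Acta2 to Pdgfrb fell by 1.03 ± 0.22 on the log2 scale (SE, n = 8 per week, exact permutation, adjusted p = 0.0012), that of Des to Pdgfrb fell by 0.81 ± 0.10 and that of Vim to Pdgfrb fell by 0.86 ± 0.08 (exact permutation, adjusted p = 0.00078 for each). Pdgfrb over Tgfb1 rose by 1.36 ± 0.08 and Pdgfrb over Ccn2 by 0.80 ± 0.20 (exact permutation, adjusted p = 0.00078 and 0.0070). All 5 of these passed without the 4 animals too. Of the 10 pairs without Pdgfrb, 3 passed between these weeks, each with Tgfb1, which fell against Des, Vim and Ccn2. Between weeks 4 and 12 the ratio passed for 4 of the 5 pairs with Pdgfrb and for 6 of the 10 pairs without it, and the Pdgfrb ratio to Ccn2 differed by 0.20 ± 0.19 (exact permutation, adjusted p = 0.41). Between weeks 8 and 12, 2 of the 5 pairs with Pdgfrb and 2 of the 10 others passed. The others were Des to Ccn2 and Tgfb1 to Ccn2. Without the 4 animals, Tgfb1 to Ccn2 did not pass (exact permutation, adjusted p = 0.054). The ratio of Pdgfrb to Ccn2 fell by 0.60 ± 0.16 (exact permutation, adjusted p = 0.0025) and that of Vim to Pdgfrb rose by 0.21 ± 0.08 (exact permutation, adjusted p = 0.025), the latter not passing without the 4 animals (adjusted p = 0.052). The part of gene length in these ratios was not tested.

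Animals of the same group also differed from each other, and the 6 genes were compared in these differences. Over the 48 animals, with log2 CPM centred on the group means, all 15 pairs were positively correlated. Pearson's r ranged from 0.54 for Tgfb1 and Ccn2 to 0.89 for Des and Vim, and every pair passed an adjusted p of 0.05 in a permutation test of 100000 permutations within groups. Of all pairs of genes tested, 1.99% had an r at or above that of the lowest of the 15, and their median r was -0.0027. For Des and Vim Spearman's rho was 0.77, with a permutation p of 1e-05 for both coefficients (adjusted p = 2.1e-05 and 3e-05), the smallest that these permutations can give. Without the 2 animals farthest from the median, 303 and 908, r for this pair was 0.81. For Acta2 and Pdgfrb r was 0.60 (permutation p = 0.00086, adjusted p = 0.0011) and rho 0.33 (permutation p = 0.035, adjusted p = 0.038), and without animals 504 and 908 r was 0.38. Without the 4 animals that stood apart, 7 of the 15 pairs passed, at r values that 4.09% of all pairs of genes reached, and the median r of the 15 was 0.36 instead of 0.70, so that the pooled values rested in part on these animals. Des and Vim then had an r of 0.70 (permutation, adjusted p = 0.00015), Des and Tgfb1 of 0.65 (adjusted p = 0.0011) and Vim and Tgfb1 of 0.63 (adjusted p = 0.0006). Acta2 and Pdgfrb had an r of 0.00 (permutation, adjusted p = 0.99), and Ccn2 passed with Vim, r = 0.43 (permutation, adjusted p = 0.026), and with none of the other 4.

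**Figure D4:**
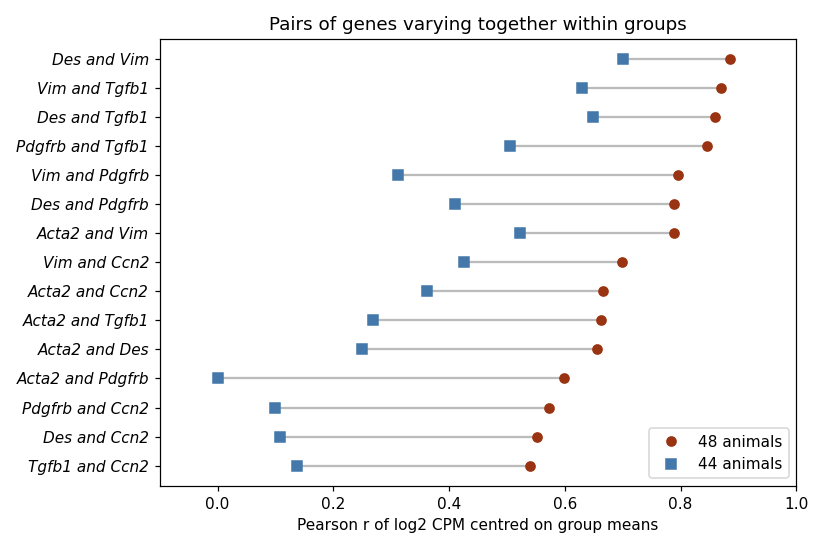
Pearson r of log2 CPM, centred on group means, for each of the 15 pairs of genes, over 48 animals (circles) and over the 44 without animals 303, 504, 908 and 1102 (squares). Every square lies to the left of its circle, from 0.00 for Acta2 and Pdgfrb to 0.70 for Des and Vim.

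Likeness to other genes was measured over the same 44 animals, as a description. Among the 12755 other genes tested, Vim was the 3rd closest to Des and Tgfb1 the 8th. Des was the 17th closest to Tgfb1 and Vim the 31st, and Vim was the 26th closest to Acta2. No member came within the closest 100 of Pdgfrb or of Ccn2. Acta2 was the 6669th closest to Pdgfrb and Des the 3438th closest to Ccn2. The closest non-members overall were ENSRNOG00000001414 for Ccn2, with an r of 0.83, and ENSRNOG00000008301 for Vim, with an r of 0.81; the reference used gave no symbol for either. The closest non-member of each of the other 4 genes had an r of 0.71 to 0.80.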

How the data were processed

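Per the study's methods and the labels, the authors prepared stranded polyA libraries, sequenced them as single-end reads, aligned them with STAR to Rnor_6.0 with Ensembl gene models and counted reads per gene; the submitters' notes name FastQC 0.11.2. The strand setting of the counting is not given in the sources used here. The deposited count table holds raw counts and the deposited RPKM table values that the authors scaled to gene length and library size. For Ccn2 the length implied by both ran from 2319 to 2562 bases among animals, a spread of 10.3%. For the other 5 genes the spread was 0.51% to 2.6%. The source of this difference was not tested. Genes that reached 1 CPM in 5 or more of a group's animals were tested with edgeR 4.0.16 (quasi-likelihood, TMM factors, 1 coefficient per group, all 48 animals, Benjamini-Hochberg over the 12756 genes). Diet calls needed an adjusted p under 0.01 and a log2 fold change of at least 1, calls between weeks the adjusted p alone. Ratios used counts plus 0.5, correlations log2 CPM with a prior count of 2. limma 3.58.1 and DESeq2 1.42.0 were alternatives, and the fits were tested on simulated data. No per-sample column was left unassigned (0). The 6 genes, the lists, and the 4 animals left out were chosen with earlier results of these data known. The genes named are the 6 members and, by likeness within groups, the 3 closest non-members of each, 2 of which are printed. Gene symbols came with the selection, and promoter sequences from RefSeq, GRCr8, where 5 of the 6 genes matched; the build differs from that of the files. Rats were housed in pairs and the cage was not in the labels, so p-values treat cage mates as independent.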

Additional observations from a re-analysis of the deposited data

Results flagged for a closer look

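Among the 36 checks of a gene in a group of 8 animals, 8 had a highest or lowest animal whose gap to the next, divided by the range of log2 CPM, was above Dixon's 95% critical value, where chance gives about 1.8 (1 in 20 groups). They came from 3 animals. Animal 303, on CDAA at week 4, was below its group in 5 genes, with gaps of 0.54 for Acta2, 0.56 for Des, 0.73 for Vim, 0.87 for Pdgfrb and 0.72 for Tgfb1. Its RPKM of Pdgfrb was 2.33, where the other 7 animals had 8.55 to 11.2. Animal 908, on CSAA at week 12, was above its group for Des (0.56) and Vim (0.59), with a Vim RPKM of 30.3 against 7.04 to 12.7 in the others. Animal 504, on CSAA at week 8, was above its group for Pdgfrb (0.67), at 7.46 against 1.95 to 3.09.

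The effect of the diet on Pdgfrb differed between weeks in the interaction test of edgeR, by 1.12 between weeks 8 and 4 (adjusted p = 0.0029) and by 1.46 between weeks 12 and 4 (adjusted p = 0.00017). In the fits that left out 1 animal each, these differences ranged from 0.99 to 1.39 and from 1.33 to 1.72. Of all genes, 20.8% and 22.1% passed these tests. With the trend on gene length removed, the difference between weeks 8 and 4 did not pass, while that between weeks 12 and 4 did.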

How the results depend on the processing

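No result that passed its threshold in either fit changed sign. Members that passed in neither did when 1 animal was left out, such as Acta2 for the diet effect at week 12 minus week 8, from -0.41 to 0.34. The call of Pdgfrb at week 4 was lost with limma-voom (0.96), with the length trend removed (0.97) and, like that of Tgfb1 at week 8 (1.15), in a test against the fold threshold (1.02), which called 1031, 1930 and 2332 of all genes at weeks 4, 8 and 12. Leaving out 1 animal gave Pdgfrb 0.97 to 1.15 at week 4, and 4 of these 16 fits lost the call. Counts of members called between weeks moved. With the length trend removed, 0 passed for the diet effect at week 8 minus week 4, against 1316 of all 12756 genes tested. Without the 4 animals, 3 passed for the diet effect at week 12 minus week 8 and 2 at week 12 minus week 4. In that fit 2 passed for CSAA at weeks 12 and 8 and 2 for CSAA at weeks 12 and 4. For CDAA, 2 passed at weeks 8 and 4 and 3 at weeks 12 and 4. Of all 12756 genes tested, 3264, 3005, 4201, 3983, 4526 and 5940 passed in these comparisons, in the same order. Of the 15 correlations, 7 passed. For CDAA at weeks 12 and 4, 2 passed with limma-voom, DESeq2, RLE factors, the length trend removed or the compared groups alone. There 3 passed with library sizes alone and 4 with RPKM. Between 4875 and 6671 of all genes passed in these settings. For CDAA at weeks 12 and 8, 1 passed with the compared groups alone, against 940 of all genes. Leaving out 1 animal gave 0 to 2 (diet effect, weeks 12 and 8, the highest without animal 908) and 0 to 3 (CSAA, weeks 12 and 8, the highest without animal 908). It gave 1 to 2 (CDAA, weeks 8 and 4, the highest without animal 303) and 1 to 2 (CDAA, weeks 12 and 4, the highest without replicates 7 or 8 of CDAA at week 4). In these fits with the highest counts, 3097, 4145, 4306, 6122 and 6173 of all genes passed, in the same order. Why the counts of members moved was not tested. Library sizes alone moved the median log2 fold change of all genes to 0.39, 0.65 and 0.73 and the split of calls to 2967 higher of 3213, 4291 of 4837 and 4864 of 5175, against 1998 of 2543, 2310 of 3856 and 2476 of 3917; relative to the median, the 6 genes were higher by 1.07 to 3.26. No paired analysis was possible because the labels number the animals singly and pair none across groups.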
